A study of Mus musculus with 309 samples.

Results

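The genes described here encode secreted proteins that restrain Wnt signalling: Sfrp1, Sfrp2, Sfrp4, Sfrp5 and Frzb of the secreted frizzled-related family, Wif1, and Dkk1, Dkk2 and Dkk3 of the Dickkopf family. They are 9 of the 55291 gene rows of the count table. The rule took the rows of these symbols, and the list was chosen by measured values: the change of this family with trametinib against untreated tumours was known when the members were picked, so that contrast is given as a description, with no p-values, and its counts of called members support nothing.

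Poly(A) RNA was sequenced from 309 mouse mammary tumours of 24 models, described by the series as genetically diverse models of triple-negative breast cancer, each library from 1 tumour. The tumours were untreated (64 tumours, 18 models) or had received trametinib, an inhibitor of the kinases MEK1 and MEK2 (65 tumours, 22 models), erlotinib, an inhibitor of the EGF receptor kinase (66 tumours, 22 models), carboplatin plus paclitaxel (66 tumours, 22 models), or antibodies to PD1 and CTLA4, named below the checkpoint antibodies (48 tumours, 16 models). Of the 100 groups of model and treatment, 92 held 3 tumours. Untreated, trametinib, erlotinib and chemotherapy tumours were all present for 16 models: 2153, 2208, C3-TAG, E0771, KPB1-A, KPB1-B, KPB25L, KPB25L-UV, MMTV-Neu, MMTV-PyMT, T11, T11-APOBEC, T12, p53RB-426, p53RB-624 and p53RB-626. The checkpoint antibodies were given to 12 of these, not to KPB25L, KPB25L-UV, T11 or T11-APOBEC. The models 2224, 2225, 2250, 2336, 4T1 and 9263 had treated tumours only, and K14-TRT (9 tumours) and KPB25L-APOBEC (1 tumour) untreated tumours only. E0771 had 1 untreated tumour. The labels name the model and the treatment; the drivers of the models, the host strain, its age, the dose and the length of treatment are not stated in the labels. Where a model is a transplanted line, its tumours would share 1 origin, and the labels do not say which models are.

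Library totals ran from 12.1 to 226 M reads (M, the prefix mega) assigned to genes, with a median of 78.6 M. The median was 76.9 M in untreated, 39.3 M in trametinib, 34.3 M in erlotinib, 103 M in chemotherapy and 113 M in checkpoint antibody tumours, so depth moved with treatment, and its part in the results was not tested. At the shallowest library 3 counts correspond to 0.248 CPM, the usual counts-per-million scale, and at the deepest to 0.0133 CPM. The epithelial gene Epcam, checked as a marker of carcinoma cells, was at 280 to 1782 CPM in the untreated means of 10 models, but at 0.320 to 3.11 CPM in those of E0771, K14-TRT, T11, T11-APOBEC, T12, p53RB-426, p53RB-624 and p53RB-626, so that this defining marker was nearly absent from 8 models labelled as mammary tumours. Among the tumours of 1 group, 355 pairs were compared and none held identical values. For 3 KPB25L-UV chemotherapy tumours the library name begins with KPB25L. The labelled group was used.

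Wnt proteins are secreted ligands that bind frizzled receptors and the co-receptors Lrp5 and Lrp6, which stabilises β-catenin and turns on its target genes. Secreted frizzled-related proteins carry a cysteine-rich domain like that of the frizzled receptors and bind Wnt proteins outside the cell. Wif1 binds Wnt proteins through a domain of its own. Dkk1 and Dkk2 bind Lrp5 and Lrp6 instead of the ligand, whereas Dkk3 is a divergent member of its family that is not known as a ligand of these co-receptors. Several of these genes are widely used as markers of connective tissue cells, Sfrp2 and Sfrp4 among them.

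The genes lie apart from each other in the mouse genome (GRCm38, GENCODE annotation). Sfrp1 is at chr8:23411502-23449632 on the plus strand, Sfrp2 at chr3:83766321-83774316 (plus), Sfrp4 at chr13:19623104-19632994 (plus), Sfrp5 at chr19:42197971-42202252 (minus) and Frzb at chr2:80411970-80447625 (minus). Wif1 is at chr10:121033960-121100650 (plus), Dkk1 at chr19:30545863-30549665 (minus), Dkk2 at chr3:132085292-132180304 (plus) and Dkk3 at chr7:112116017-112159057 (minus). The antisense gene Gm26771 overlaps Sfrp2, and the strand setting of the counting is not given in the sources, so reads of the pair cannot be told apart.

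The promoters of 3 members are shown because these genes carry the main patterns below: Sfrp2 has the largest mean difference with trametinib, Wif1 has untreated model means from 0.0176 to 162 CPM, and Dkk2 is highest in tumours with little Epcam. Each sequence is the 250 bases before the gene start in RefSeq GRCm38.p6, read 5′ to 3′ on the plus strand, at chr3:83766071-83766320 for Sfrp2, chr10:121033754-121034003 for Wif1 and chr3:132085042-132085291 for Dkk2. Capitals mark matches, on either strand, to a TATA box (TATAAA) or to the E-box bound by SNAI and ZEB factors (CAGGTG).
Sfrp2: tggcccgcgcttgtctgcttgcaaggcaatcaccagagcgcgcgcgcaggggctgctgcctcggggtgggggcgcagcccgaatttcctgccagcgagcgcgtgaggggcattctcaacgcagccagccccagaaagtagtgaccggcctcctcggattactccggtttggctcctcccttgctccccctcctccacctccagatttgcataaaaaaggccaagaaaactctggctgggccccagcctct
Wif1: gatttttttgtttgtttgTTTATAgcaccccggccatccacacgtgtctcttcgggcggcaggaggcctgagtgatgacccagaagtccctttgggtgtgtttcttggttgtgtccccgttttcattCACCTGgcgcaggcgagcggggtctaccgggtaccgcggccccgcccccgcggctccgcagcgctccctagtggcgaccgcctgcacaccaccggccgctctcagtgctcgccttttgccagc
Dkk2: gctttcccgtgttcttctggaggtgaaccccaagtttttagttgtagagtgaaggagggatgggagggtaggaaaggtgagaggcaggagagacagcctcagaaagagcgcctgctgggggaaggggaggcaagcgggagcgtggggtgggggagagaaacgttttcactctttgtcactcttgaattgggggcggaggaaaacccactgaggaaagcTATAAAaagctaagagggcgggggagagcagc
Promoter entries were matched for 6 of the 9 members. The Dkk2 window has TATAAA 32 bases before the start, and Dkk1 has it 54 bases before. The Wif1 window holds it on the other strand (TTTATA) 232 bases before the start, and an E-box, as CACCTG, 123 bases before. The Sfrp2 window holds none of the letters searched. TATAAA occurs in 13% of the 27018 promoters of this length and CAGGTG in 17.1%, the latter also in that of Sfrp5. The AP-1 letters TGANTCA occur in 6.87% and the TCF/LEF letters CTTTGAT in 3.23%, and neither occurs in the 6 members' windows. The number of CpG dinucleotides was 16 for Sfrp2, 21 for Wif1 and 7 for Dkk2, against a median of 6 over all promoters. A match is a description of letters only, and its absence says nothing about a factor.

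Untreated tumours. Per kilobase of exon, the only scale on which genes are compared here, Sfrp1, Dkk3 and Sfrp2 had the highest typical levels: the median of the 18 model means was 7.53 CPM per kb for Sfrp1, 6.42 for Dkk3 and 5.48 for Sfrp2. Dkk2 followed at 1.81 CPM per kb and Sfrp4 at 0.765, and Frzb, Wif1 and Sfrp5 were at 0.207, 0.161 and 0.0796. Dkk1 was close to silent, with 95 counts in all tumours together, none in 262 of 309 and at most 6 in any, so it entered no test.

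**Figure D1:**
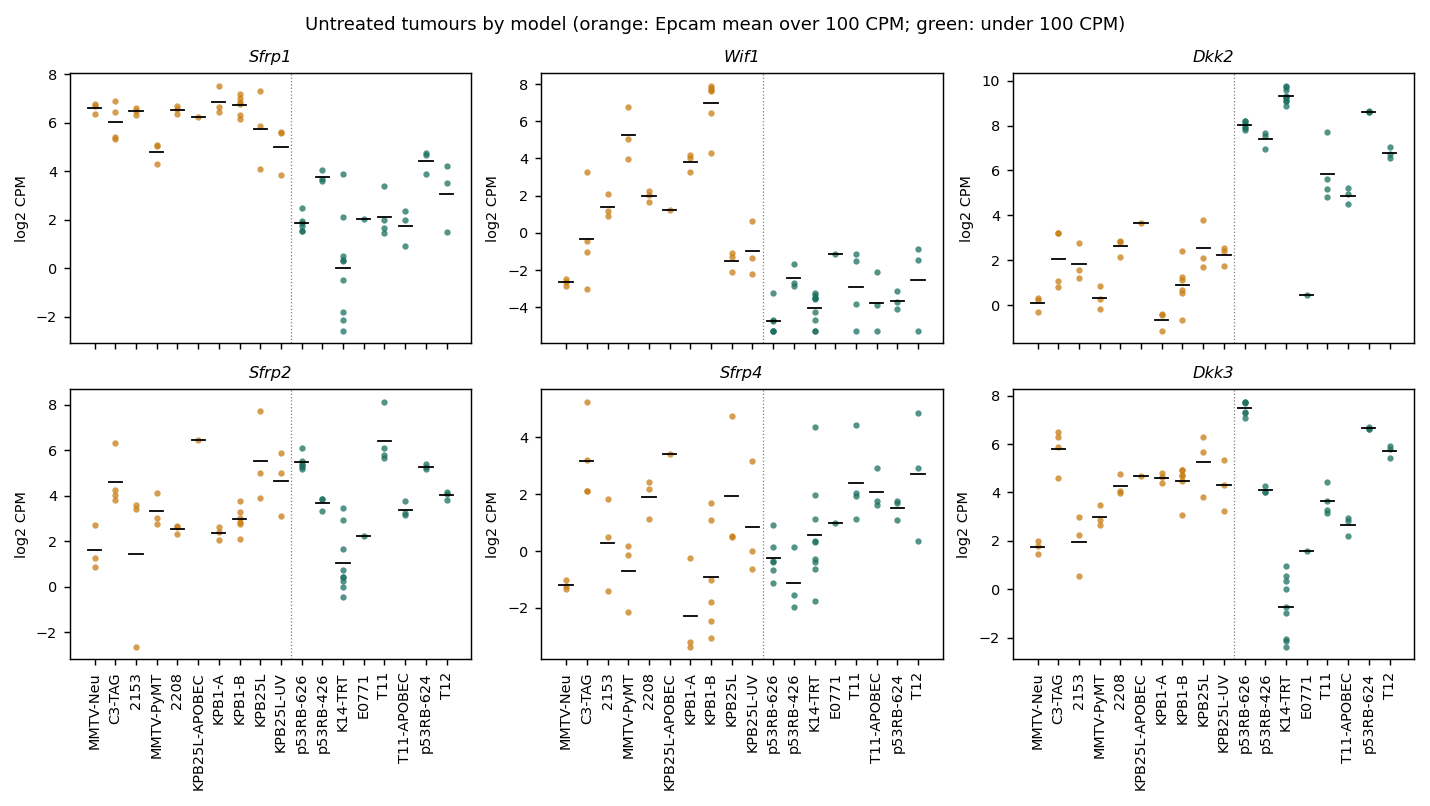
Expression of 6 antagonists in every untreated tumour, as log2 CPM (vertical axis), by model (horizontal axis, ordered by Epcam); points are tumours, bars are model means, and colour separates models with Epcam over 100 CPM (orange) from those under it (green). Sfrp1 is high on the Epcam-rich side, Dkk2 on the Epcam-poor side, and Wif1 stands out in KPB1-B, MMTV-PyMT and KPB1-A.

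Sfrp1, which binds Wnt proteins and is best known as a gene silenced in human carcinomas, was highest in KPB1-A at 124 ± 53.7 CPM (SD, n = 3), KPB1-B at 109 ± 28.7 (n = 6) and MMTV-Neu at 97.2 ± 14.2 (n = 3). It was lowest in K14-TRT at 2.66 ± 4.65 CPM (n = 9), T11-APOBEC at 3.62 ± 1.64 (n = 3) and p53RB-626 at 3.67 ± 0.985 (n = 6). Model means ran from 28.7 to 124 CPM in the 10 Epcam-rich models and from 2.66 to 22.3 in the 8 Epcam-poor ones, so the model means of these sets did not overlap. No neighbouring models in the order of Sfrp1 levels were separated by their tumours: all 17 adjacent pairs overlapped.

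Dkk2, an antagonist at the Lrp5 and Lrp6 co-receptors that can also act as an agonist in some settings, showed the reverse arrangement. K14-TRT had 655 ± 142 CPM (n = 9), with a lowest tumour of 472, a median of 622 and a highest of 882. The p53RB models followed, with 388 ± 6.76 in p53RB-624 (n = 3), 262 ± 29.9 in p53RB-626 (n = 6) and 172 ± 42.6 in p53RB-426 (n = 3). The ranges of K14-TRT, p53RB-624, p53RB-626 and p53RB-426 did not overlap each other, and 5 of the 17 neighbouring pairs in the order of Dkk2 were separate, more than for any other member. The lowest Dkk2 was in KPB1-A, at 0.620 ± 0.172 CPM (n = 3), and no Epcam-rich model exceeded 12.5 CPM. Model means in the Epcam-poor set ran from 1.36 CPM in E0771, its 1 untreated tumour, to 655, with a median of 141 against 4.40 in the Epcam-rich set.

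Wif1 was concentrated in a few models. KPB1-B had 162 ± 88.1 CPM (n = 6), MMTV-PyMT 53.1 ± 50.2 (n = 3) and KPB1-A 14.7 ± 4.36 (n = 3), whereas p53RB-626 had 0.0176 ± 0.0311 (n = 6). The 3 MMTV-PyMT tumours ranged from 15.9 to 110.2 CPM, so the spread within that model was wide. All 8 Epcam-poor models had means of 0.436 CPM or less, and the Epcam-rich ones ran from 0.134 in MMTV-Neu to 162. Among models with no untreated tumours, 9263 was higher still, with 404, 453 and 550.1 CPM in its erlotinib tumours.

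Sfrp2, a matrix-associated frizzled-related protein of connective tissue, had a wide spread within some models and a narrow one in others. T11 had the highest mean, 114 ± 112 CPM (n = 4), from tumours at 50.2, 56.0, 68.2 and 282 CPM. KPB25L followed at 84.9 ± 107 (n = 3), from 14.8, 31.4 and 208. The mean of each of these models rested on 1 tumour, while p53RB-624, at 36.4, 38.1 and 41.4 CPM, and p53RB-626, with 45.1 ± 11.7 (n = 6), were even. The lowest means were 3.54 ± 2.56 in MMTV-Neu (n = 3) and 3.21 ± 3.66 in K14-TRT (n = 9). Each neighbouring pair in the order overlapped.

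Dkk3, the divergent Dickkopf member, was highest in p53RB-626 at 182 ± 35.6 CPM (n = 6) and p53RB-624 at 101 ± 3.80 (n = 3), whose ranges did not overlap each other or the next model. C3-TAG had 62.8 ± 28.7 (n = 4), and K14-TRT was lowest at 0.801 ± 0.627 (n = 9), below the 2.93 CPM of the E0771 tumour next to it in the order. K14-TRT therefore held the highest Dkk2 and the lowest Dkk3 of the 18 models. Sfrp4, a frizzled-related protein known for its role in bone, had means of 0.323 to 14.0 CPM with wide spread, as in C3-TAG (14.0 ± 16.4, n = 4). The highest means of Sfrp5 (4.84 CPM) and Frzb (8.62 CPM) were those of the 1 KPB25L-APOBEC tumour.

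Trametinib against untreated tumours. Across the 16 models, 5 of the 8 members that passed the low-count filter were higher after trametinib and none was lower, in edgeR's quasi-likelihood fit with model as a term. This count comes from the contrast that chose the genes, and nothing is read from it; over all 25685 genes tested, 14.1% were called higher and 14.1% lower. The fitted differences were 1.98 ± 0.176 (log2, ± SE) for Sfrp2, 1.25 ± 0.306 for Sfrp4, 1.20 ± 0.332 for Sfrp5, 1.13 ± 0.144 for Dkk3 and 0.68 ± 0.143 for Sfrp1. The other members were at 0.48 ± 0.343 for Wif1, −0.35 ± 0.254 for Frzb and −0.15 ± 0.166 for Dkk2. In a bulk sample, fewer cells of a type and less RNA per cell cannot be told apart, here and below.

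Sfrp2 had a higher mean log2 CPM after trametinib in all 16 models, and in 13 of them every trametinib tumour was above every untreated tumour of the model. In T11-APOBEC the untreated tumours had 8.81, 9.53 and 13.5 CPM and the trametinib tumours 118, 145 and 202, a difference of 3.86 ± 0.295 on the log2 scale. In 2153 the untreated tumours had 0.132, 10.8 and 12.0 CPM and the trametinib tumours 40.6, 64.9 and 68.8, a difference of 4.37 ± 2.07 whose error reflects the 1 untreated tumour near 0. The trametinib groups of both models lay wholly above their untreated groups.

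In T11 the trametinib tumours, at 515, 528 and 576 CPM, were the highest of the series, against 50.2 to 282 untreated (2.65 ± 0.687). In p53RB-626 they were at 154, 265 and 287, against a lowest of 35.9, a median of 41.1 and a highest of 67.9 (2.37 ± 0.271). In KPB25L-UV they were at 105, 219 and 221, against 8.48, 31.5 and 58.4 (2.78 ± 0.894). These groups did not overlap either.

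The differences were 2.29 ± 0.391 in KPB1-A, 2.28 ± 0.643 in MMTV-Neu, 1.82 ± 0.267 in p53RB-624, 1.68 ± 0.207 in p53RB-426, 1.52 ± 0.427 in MMTV-PyMT, 1.50 ± 0.486 in 2208 and 1.07 ± 0.152 in T12, all without overlap. The smallest was 0.82 in E0771, where the 1 untreated tumour had 4.72 CPM and the trametinib tumours 5.26, 9.47 and 11.8. Groups overlapped in C3-TAG (13.8, 16.5, 18.7 and 79.6 CPM untreated, 40.0, 68.7 and 293 after trametinib), KPB25L and KPB1-B. The tumours' library numbers differed between untreated and treated groups in 5 models (2153, 2208, C3-TAG, MMTV-Neu and MMTV-PyMT), which had no untreated library within 100 numbers of a treated one. In the other 11, with only such near untreated tumours, Sfrp2 was higher in 11 of 11, with a median difference of 1.82, against 1.88 over the 16 models.

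**Figure D2:**
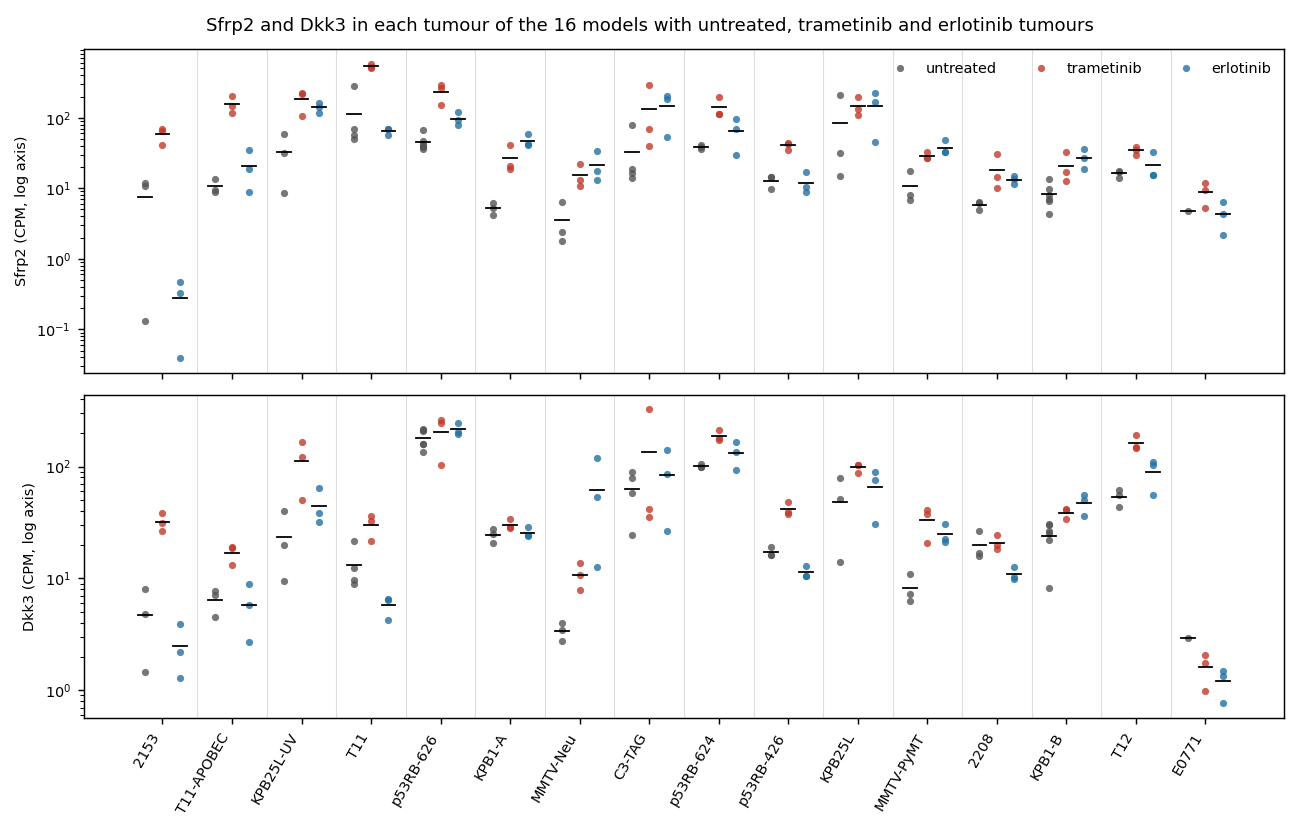
Sfrp2 and Dkk3 in each untreated, trametinib and erlotinib tumour, in CPM on a log axis (vertical), for 16 models (horizontal, ordered by the Sfrp2 difference with trametinib); points are tumours and bars are means. For Sfrp2 the trametinib tumours lie wholly above the untreated ones in 13 of 16 models, and in 2153 the erlotinib tumours lie near the bottom of the panel.

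Dkk3 was higher after trametinib in 15 of 16 models, without overlap in 11, and lower in E0771. In 2153 it went from 1.44, 4.76 and 7.97 CPM untreated to 26.5, 31.3 and 38.4, a difference of 3.05 ± 0.741. In MMTV-PyMT the values were 6.32, 7.27 and 11.1 against 20.6, 37.5 and 40.9 (1.98 ± 0.394), and in T12 43.4, 56.2 and 61.2 against 146, 149 and 193 (1.60 ± 0.197). None of these groups overlapped. In p53RB-624, where Dkk3 was already at 98.6, 99.7 and 106 CPM, the trametinib tumours had 171, 179 and 211 (0.88 ± 0.0963). In p53RB-626, the model with the highest Dkk3, the trametinib tumours at 103, 245 and 261 CPM spanned the untreated range of 134 to 217. The median difference over the models was 1.26.

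Sfrp4 was higher in 13 of 16 models, with a median difference of 1.08, and 5 models were separated upward, 2153, KPB1-A, MMTV-Neu, MMTV-PyMT and T11-APOBEC, and E0771 downward. The largest difference, in KPB1-A, went from 0.0702, 0.0845 and 0.815 CPM to 1.28, 4.24 and 10.4 (4.22 ± 1.33). In MMTV-Neu it went from 0.373, 0.397 and 0.472 to 1.38, 2.60 and 3.02 (2.36 ± 0.354). Sfrp1 was higher in 13 of 16 models, but its groups separated upward only in 2153, 2208, MMTV-PyMT and T11-APOBEC. In 2153 Sfrp1 was tight on both sides, with 79.1, 90.6 and 96.3 CPM untreated and 278, 278 and 289 after trametinib (1.67 ± 0.0858), and in 2208 it went from 81.2, 95.7 and 102 to 173, 188 and 196 (1.00 ± 0.110).

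**Figure D3:**
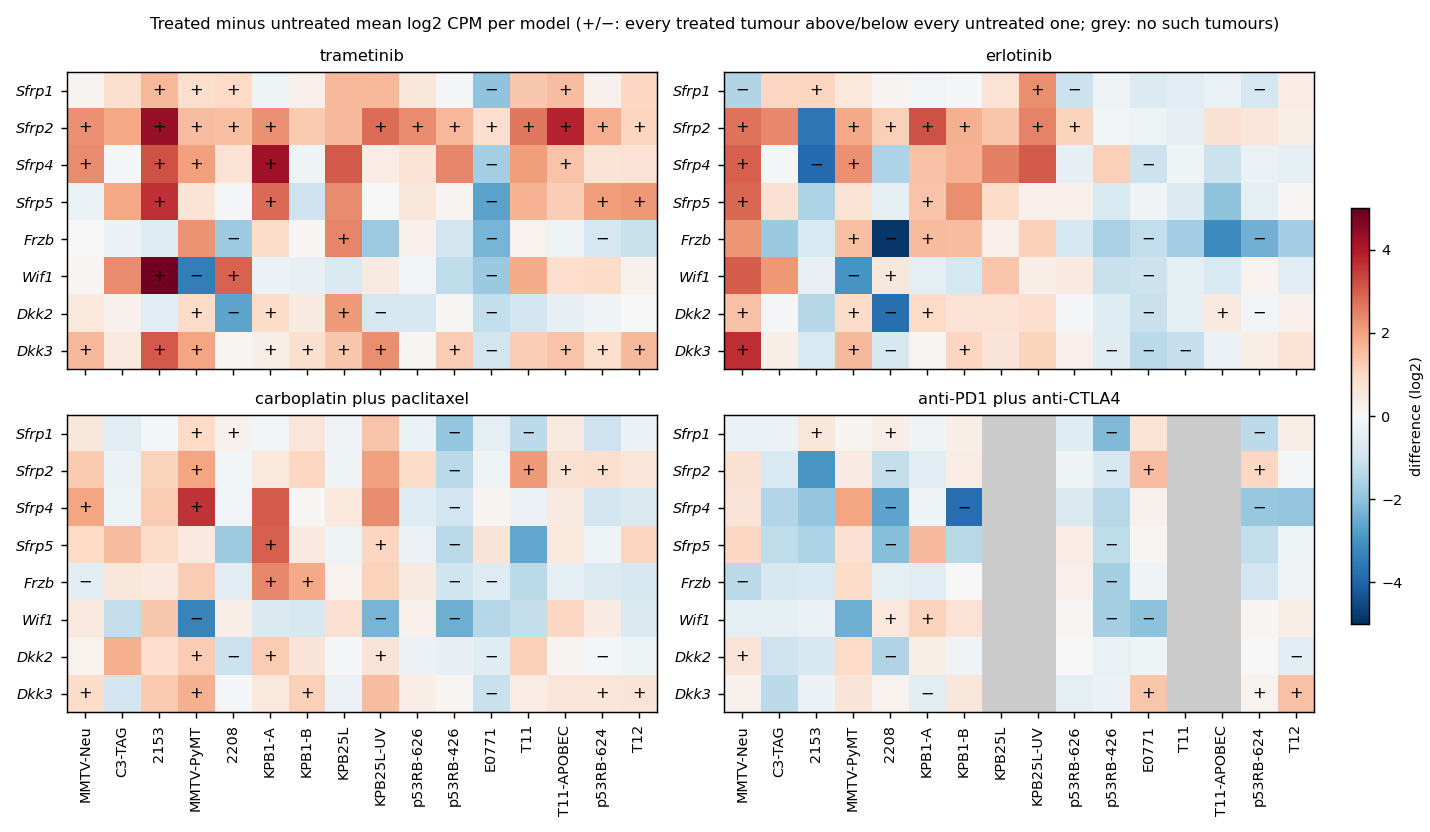
Difference in mean log2 CPM from untreated tumours (colour scale, log2) for 8 members (rows) in 16 models (columns) under each treatment (panels); a plus or minus marks groups that do not overlap, upward or downward, and grey marks models without checkpoint antibody tumours. The Sfrp2 row is above 0 in all 16 models with trametinib, while the Wif1 and Dkk2 rows hold differences of both signs.

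Wif1 differed in both directions between models. In 2153 it went from 1.83, 2.21 and 4.19 CPM to 65.7, 79.0 and 80.5 (4.85 ± 0.371), and in 2208 from 3.17, 4.09 and 4.68 to 25.6, 28.8 and 38.4 (2.95 ± 0.238). In MMTV-PyMT it went the other way, from 15.9, 33.3 and 110.2 CPM to 1.73, 1.97 and 12.6 (−3.46 ± 1.23). The pooled Wif1 difference of 0.48 thus averages separated groups of opposite sign, and it was 0.17 without 2153 and −0.19 with near untreated tumours only.

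Dkk2 was higher in 7 models and lower in 9, with 3 separated in each direction. In KPB25L it went from 3.18, 4.28 and 14.0 CPM to 18.6, 20.8 and 40.9 (2.12 ± 0.740). In 2208 it went from 4.41, 7.09 and 7.23 to 0.540, 0.679 and 2.29 (−2.65 ± 0.672). These untreated tumours were also above every 2208 tumour of the other treatments. In the p53RB models and T12, where Dkk2 is abundant, the differences lay between −0.81 and 0.06 and the groups overlapped. Frzb, also known as Sfrp3, was lower in 10 of 16 models, from untreated means of 1.82 CPM or less. In KPB25L it was higher, at 0.201, 2.60 and 2.65 CPM untreated and 4.24, 4.30 and 14.1 after trametinib. Sfrp5 was at or under 0.834 CPM in the untreated mean of each of the 16 models, and its differences ran from −2.68 in E0771 to 3.67 in 2153.

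With trametinib 7 of the 10 fibroblast genes were called higher and none lower, with a median difference of 0.95 on the log2 scale against 0.00 over all genes tested; Postn, a matrix protein gene, was at 1.15 ± 0.147 and the collagen gene Col1a1 at 1.05 ± 0.139. Summarised as the mean log2 CPM of the list, the untreated tumours lay between 3.89 and 9.75 and the trametinib tumours between 5.35 and 9.77, and the model difference ran from −0.32 in E0771 to 2.19 in 2153. In 5 models the list differed by 0.20 or less in either direction. It was at −0.10 in 2208, −0.10 in p53RB-626, 0.12 in p53RB-426, 0.14 in T12 and 0.20 in p53RB-624. The Sfrp2 differences there were 1.50, 2.37, 1.68, 1.07 and 1.82, and that in 2153 was 4.37. Single genes of the list are not given for these models, apart from Col1a1. Its mean went from 3538 CPM untreated to 4344 after trametinib in 2208 and from 1960 to 2693 in p53RB-626. It went from 1305 to 1327 in p53RB-426, 3154 to 3956 in T12 and 1585 to 2233 in p53RB-624. All of the 5 but 2208 are Epcam-poor, and which cells express the list was not tested. The part of the list in the result was not tested either.

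Other cell-type lists moved too. In the pooled fit 2 of 6 adipocyte genes (median 1.03) and 2 of 4 T-cell genes (0.55) were called higher. Of 6 macrophage genes 2 were called lower (0.01), and of 8 epithelial genes 2 (−0.13). Of 7 smooth muscle and pericyte genes 3 were higher and 3 lower (−0.18). Over all genes 14.1% were called higher and 14.1% lower, and the part of these lists was not tested. Single models differed strongly in some lists. In 2153 the mean log2 CPM of the 6 adipocyte genes was 5.38 higher after trametinib and that of the 5 skin keratinocyte genes 4.05 higher. In E0771 the 1 untreated tumour was 8.03 above the trametinib tumours in the keratinocyte genes, and 7 members (Sfrp1, Sfrp4, Sfrp5, Frzb, Wif1, Dkk2 and Dkk3) were below that tumour in all 3 trametinib tumours. Without 2153 the fitted Sfrp2 difference was 1.91 and that of Dkk3 1.02; without E0771 they were 2.01 and 1.20. The 6 endothelial genes were all called lower, with a median of −0.57.

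**Figure D4:**
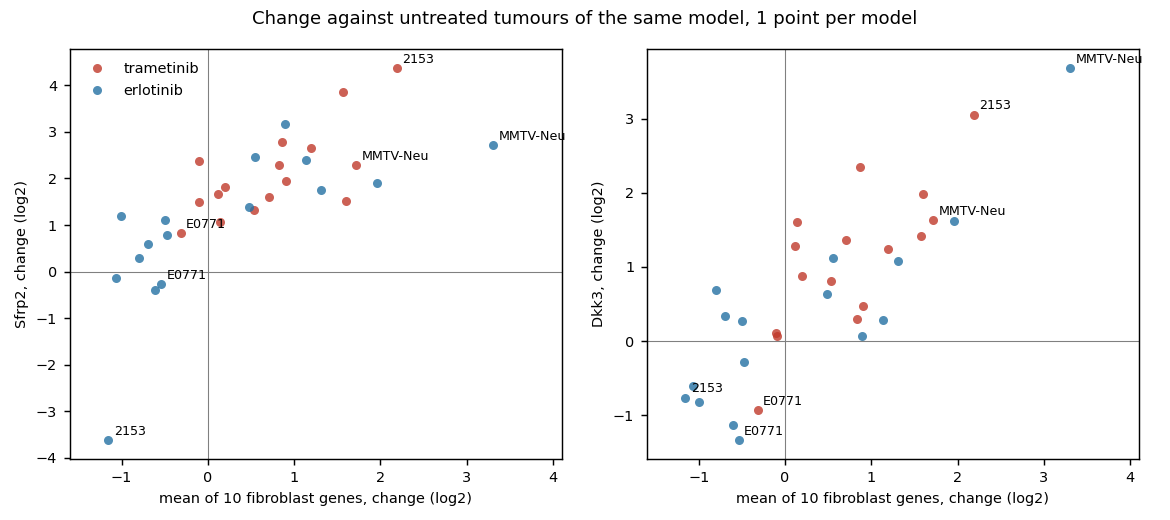
Difference in Sfrp2 and Dkk3 (vertical axis, log2 CPM) against the difference in the mean log2 CPM of 10 fibroblast genes (horizontal axis), with trametinib and with erlotinib, 1 point per model. With trametinib all Sfrp2 points lie above 0, the highest that of 2153, and with erlotinib MMTV-Neu lies far to the right at 3.30.

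Trametinib against erlotinib. The tumours of the 6 models without untreated tumours are not in the contrast with untreated tumours, although earlier results of these data were known when the genes were chosen. Comparing the kinase inhibitors there asks whether Sfrp2 also differs between them. Sfrp2 was higher after trametinib than after erlotinib, by 0.89 ± 0.215 (log2), with an adjusted p of 0.0372 (edgeR's quasi-likelihood test, Benjamini-Hochberg over 19964 genes), and was higher in 6 of 6 models. It was the 1 member called of 8 tested; over all genes 0.446% were called higher and 0.426% lower.

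In 2336 the erlotinib tumours had 5.22, 8.47 and 14.5 CPM of Sfrp2 and the trametinib tumours 25.0, 25.4 and 42.1. In 2224 they had 8.37, 14.2 and 29.7 against 34.0 and 108. In 2250 they had 6.56, 6.86 and 6.97 against 9.57, 10.3 and 11.9, and in 4T1 16.8, 17.1 and 22.3 against 23.5, 28.2 and 29.1. These 4 models were separated, and 2225 (15.5, 17.8 and 19.9 against 14.8, 19.8 and 53.9) and 9263 (21.5, 42.2 and 58.2 against 30.2, 39.3 and 46.7) were not.

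The call was close to the threshold. It was lost without 2224 (adjusted p 0.115), 2250 (0.101), 2336 (0.153) or 4T1 (0.12), without any 1 of the replicates (0.114 to 0.295) and with 1 difference per model (0.999), while the difference stayed between 0.63 and 1.10. Of the 10 fibroblast genes 4 were also higher in trametinib tumours, with a median of 0.67 against −0.01 over all genes, and the list's mean log2 CPM ran from 4.70 to 7.52 in erlotinib and from 5.85 to 8.70 in trametinib tumours. The 6 adipocyte genes were higher in 5 of 6 models, by a median of 1.53. The 7 skeletal muscle genes had a median fitted difference of 1.85 and the 5 skin keratinocyte genes one of −1.57, with no gene of either list called. The part of any of these lists in the result was not tested.

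Dkk3 differed by 0.40 ± 0.126 (adjusted p 0.124), with 4T1 the clearest model, at 9.97, 11.2 and 11.8 CPM with erlotinib and 22.8, 25.6 and 25.7 with trametinib. Sfrp4 differed by 1.43 ± 0.496 (adjusted p 0.174), Sfrp5 by 1.24 ± 0.565 (0.345), Frzb by 0.48 ± 0.424 (0.720) and Dkk2 by 0.38 ± 0.246 (0.564). Sfrp1 was near 0, at 0.01 ± 0.122 (0.989), but its models were divided: in 2336, where Sfrp1 reached its highest values, the erlotinib tumours had 1218, 1379 and 1454 CPM and the trametinib tumours 599, 680.5 and 810.3. Wif1 differed by −0.06 ± 0.228 (0.966), with 453, 479.9 and 511 CPM in the trametinib tumours of 9263, within the range of its erlotinib tumours.

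**Figure D5:**
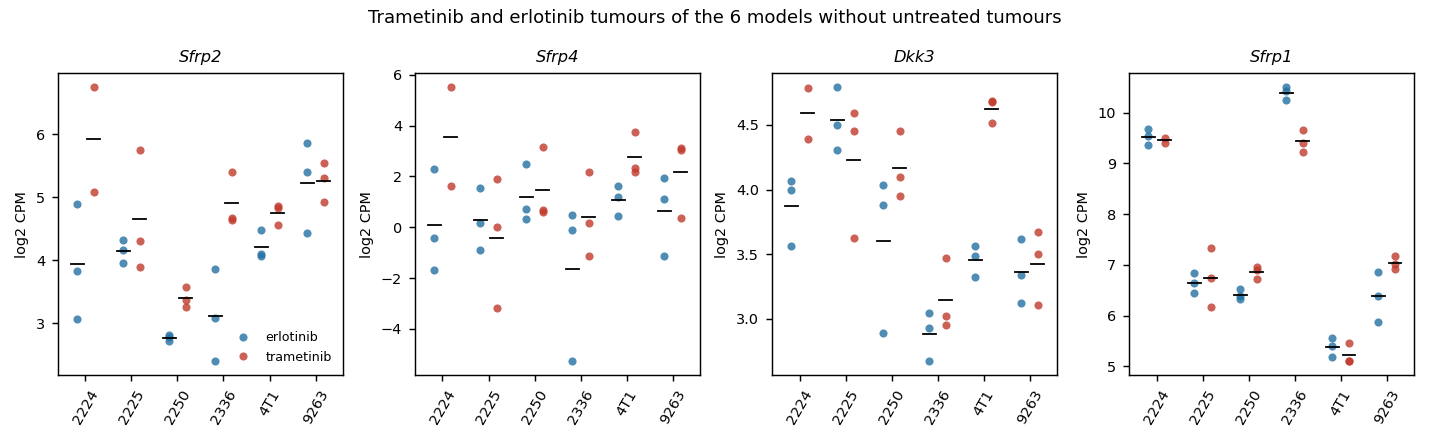
Sfrp2, Sfrp4, Dkk3 and Sfrp1 as log2 CPM (vertical axis) in each erlotinib and trametinib tumour of the 6 models without untreated tumours (horizontal axis); points are tumours. For Sfrp2 the trametinib tumours lie above the erlotinib tumours in 2224, 2250, 2336 and 4T1, and for Sfrp1 they lie below them in 2336.

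In the 16 models with untreated tumours the same comparison uses the trametinib tumours that chose the genes, so its values are descriptive. Sfrp2 was higher after trametinib by 0.87 ± 0.231, Dkk3 by 0.78 ± 0.186 and Sfrp1 by 0.55 ± 0.156. These 3 of 8 members passed the threshold upward and none downward, against 9.73% and 8.81% of all genes, and with 1 difference per model none did. The model differences were uneven: for Sfrp2 they ran from −0.89 in KPB1-A to 7.99 in 2153, and trametinib was higher in 11 of 16 models.

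Erlotinib against untreated tumours. This comparison and the next 2 use the same untreated tumours as the trametinib contrast, so their values are not independent of it. Sfrp2 rose with erlotinib by 1.06 ± 0.236 (log2; adjusted p 0.00443, edgeR's quasi-likelihood test) and was the 1 member called; 1.62% of all 25856 genes were called higher and 2.62% lower. It was higher in 12 of 16 models and without overlap in 7. In KPB1-A it went from 4.16, 5.30 and 6.22 CPM to 41.6, 41.8 and 59.3, in MMTV-PyMT from 6.79, 8.10 and 17.4 to 32.5, 32.8 and 47.9, and in MMTV-Neu from 1.76, 2.37 and 6.47 to 13.2, 17.4 and 33.7. These groups did not overlap. In 2153 it was at 0.0390, 0.324 and 0.465 CPM with erlotinib, a difference of −3.61 from untreated tumours of which 1 was at 0.132.

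The differences between models were themselves past the threshold for 7 of the 8 members (edgeR's interaction test), against 52.6% of all genes. The adjusted p was 1.77e-05 for Sfrp2, 1.04e-06 for Dkk3, 0.000653 for Frzb and 0.00167 for Dkk2, and those of Wif1, Sfrp4 and Sfrp1 lay between 0.0130 and 0.0253. Sfrp5 missed it (0.0813). Without 1 of the replicates 3 to 5 members passed. Dkk3 illustrates the split: in MMTV-Neu it went from 2.74, 3.46 and 4.01 CPM to 12.7, 53.9 and 119.5, whereas in p53RB-426 it went from 16.2, 16.3 and 19.1 to 10.4, 10.5 and 13.0. In MMTV-Neu the fibroblast, adipocyte and macrophage lists were 3.30, 4.50 and 3.16 higher with erlotinib, and their part in the result was not tested. Frzb and Dkk2 were both low with erlotinib in 2208. Frzb had 1.24, 1.78 and 2.01 CPM untreated and 0, 0.0306 and 0.109 with erlotinib. These erlotinib values of Frzb lie under the 0.248 CPM that 3 counts give at the shallowest library. Dkk2 had 4.41, 7.09 and 7.23 against 0.367, 0.391 and 0.544. Dkk2 was below these same untreated tumours with each other treatment too, at means of 1.17 CPM with trametinib, 2.87 with chemotherapy and 2.26 with the antibodies. None of these untreated tumours was within 100 library numbers of the erlotinib tumours.

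The pooled Sfrp2 call was lost when only untreated tumours far in library number were used (0.95, adjusted p 0.179), in a fit of the 8 models that have such tumours, and without replicate 2 (0.0906) or 3 (0.0757) and with 1 difference per model (0.825). The other members were not called: Dkk3 at 0.31 ± 0.176 (0.329), Sfrp4 at 0.50 (0.482), Sfrp5 at 0.60 (0.354), Frzb at −0.45 (0.529), Wif1 at 0.21 (0.811), Sfrp1 at 0.09 (0.832) and Dkk2 at 0.04 (0.934). The 10 fibroblast genes had a median of 0.18, and the list was higher in 7 of 16 models.

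Carboplatin plus paclitaxel against untreated tumours. Dkk3 rose by 0.50 ± 0.134 (log2; adjusted p 0.00530, edgeR's quasi-likelihood test) and Sfrp2 by 0.70 ± 0.205 (0.0111), and no member was called lower, against 11.6% of 26710 genes higher and 5.89% lower. Dkk3 was higher in 12 of 16 models and Sfrp2 in 11 of 16. In T11 Sfrp2 went from 50.2, 56.0, 68.2 and 282 CPM to 314, 379 and 450.2, and in MMTV-PyMT from 6.79, 8.10 and 17.4 to 23.8, 41.2 and 58.9. In p53RB-426 it went the other way, from 9.89, 14.2 and 14.4 to 4.48, 4.75 and 5.70. All of these groups were separate.

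MMTV-PyMT had the largest chemotherapy differences of Dkk3 and Sfrp4. Dkk3 went from 6.32, 7.27 and 11.1 CPM to 24.3, 27.6 and 31.0, and Sfrp4 from 0.201, 0.877 and 1.09 to 5.92, 5.96 and 11.8. Wif1 in the same model went down, from 15.9, 33.3 and 110.2 to 3.52, 3.90 and 3.93, its direction there with trametinib and erlotinib too, against the same 3 untreated tumours. The fibroblast list was 2.07 higher in MMTV-PyMT, the most of any model, and 4 of its 10 genes were called higher in the pooled fit; its part in the results was not tested. Also called higher were 4 of 6 macrophage genes (median 0.49), 2 of 4 T-cell genes (0.79) and 3 of 6 endothelial genes (0.30), against a median of 0.04 over all genes, and their part was not tested either. Pooled Wif1 was at −0.59 ± 0.336 (adjusted p 0.220) and Dkk2 at 0.34 (0.117).

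Models differed for 4 of 8 members, with adjusted p values of 0.00308 for Sfrp5, 0.0119 for Frzb, 0.0153 for Sfrp1 and 0.0252 for Dkk3 (edgeR's interaction test), against 46.3% of all genes. Without 1 of the replicates 0 to 1 members passed, and the Sfrp5 and Frzb calls were lost without each of the 3. The pooled calls of both genes were lost with 1 difference per model (adjusted p 0.300 for Dkk3 and 0.239 for Sfrp2). That of Sfrp2 was also lost with near untreated tumours only (0.0988), in a fit of the 7 models that have them, and without replicate 2 (0.0844) or 3 (0.0707), and that of Dkk3 without replicate 3 (0.0929).

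Checkpoint antibodies against untreated tumours. Sfrp4 fell by 1.52 ± 0.388 (log2; adjusted p 0.00821, edgeR's quasi-likelihood test) and Frzb by 0.58 ± 0.192 (0.0470), over 12 models. These were 2 of 8 members called lower and none higher, against 3.14% of 25562 genes lower and 4.98% higher. Sfrp4 was lower in 9 of 12 models and Frzb in 10 of 12. In 2208 Sfrp4 went from 2.15, 4.57 and 5.32 CPM to 0.303, 0.632 and 1.00, and in p53RB-624 from 2.13, 3.23 and 3.33 to 0.595, 0.638 and 1.11. In KPB1-B its 3 treated tumours, at 0.00866, 0.00889 and 0.0187, were below every untreated one, of which the lowest was at 0.0944 and the highest at 3.23. These treated values rest on fewer than 3 counts each. Those 3 models were the separated ones, and none was separated upward.

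The Sfrp4 call did not hold under several alternatives. With untreated tumours near in library number, which only 3 of the 12 models have (9 treated and 9 untreated tumours), the difference was 0.51 (adjusted p 0.814), the opposite sign. With 1 difference per model it was −1.11 (0.510). Without replicate 1, 2 or 3 the adjusted p was 0.110, 0.0642 and 0.133. The Frzb call was lost under 16 of its 23 alternatives. All 7 skeletal muscle genes were called lower in this comparison, with a median of −3.30 and with 0 of 12 models higher; the list's mean log2 CPM ran from −1.86 to 8.57 untreated and from −3.22 to 6.04 treated. Of the 6 adipocyte genes 3 were called lower, with a median of −1.55. The part of either list in the falls of Sfrp4 and Frzb was not tested.

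Sfrp2 and Dkk3 were not called in the pooled fit, but models differed. The interaction adjusted p was 0.00209 for Dkk3, 0.00331 for Sfrp4, 0.0104 for Sfrp2, 0.0209 for Sfrp5, 0.0222 for Dkk2 and 0.0365 for Sfrp1, which is 6 of 8 members against 33.9% of all genes. Without 1 of the replicates 0 to 3 members passed, and the Sfrp5 and Dkk2 calls were lost without each of the 3. In T12 Dkk3 went from 43.4, 56.2 and 61.2 CPM to 135, 147 and 157. In 2153 Sfrp2 was at 0.146, 0.150 and 1.57, within the untreated range of 0.132 to 12.0 (a difference of −2.91), while in p53RB-624 it went from 36.4, 38.1 and 41.4 to 69.4, 76.5 and 90.0. In p53RB-426 Sfrp1 was separated downward, from 12.1, 12.7 and 16.6 to 1.85, 2.08 and 6.45.

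Genes with a similar pattern. Likeness was measured as Pearson's r of each tumour's deviation from the mean of its own model and treatment, over 307 tumours and 12577 genes, as a description, since the tumours share their libraries and depth. The genes most like Sfrp2 were Cpz (0.748), Mmp23 (0.695), Cpxm1 (0.668) and C1qtnf3 (0.657), and those most like Dkk3 were Adamts2 (0.771), Bgn (0.702), Cpxm1 (0.696) and Mmp2 (0.693). Sfrp4 was most like Clec3b (0.799), Pi16 (0.795), Tnxb (0.786) and Cadm3 (0.749). Sfrp1 was most like Gpc3 (0.665), Srpx (0.646), Clec11a (0.628) and Lrrn2 (0.617). Wif1 was most like Trp63 (0.553), which encodes a transcription factor of basal and squamous epithelium, and Fgfr2 (0.495), Rhbdl3 (0.476) and Matn4 (0.47). Dkk2 was most like Poglut3 (0.541), Gask1b (0.539), Sema3a (0.534) and Olfml3 (0.528).

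Within groups, r with the fibroblast list was 0.648 for Dkk3, 0.638 for Sfrp2, 0.542 for Sfrp4, 0.505 for Dkk2, 0.334 for Sfrp1 and 0.251 for Wif1. Among the members, Sfrp2 and Dkk3 varied together most (0.577), then Sfrp2 and Sfrp4 (0.456) and Sfrp1 and Dkk3 (0.446). Over the means of the 18 untreated models the most similar genes were other ones: Tgfa (0.974), Myo5b (0.952), Grhl2 (0.941) and Lamb3 (0.927) for Sfrp1, Arsj (0.937), Fam131b (0.924), Txndc5 (0.922) and Emx2 (0.922) for Dkk2, and Fam53b (0.897), Etv6 (0.880), Fads2 (0.866) and Krt79 (0.863) for Wif1. For Sfrp2 they were Thsd1 (0.895), Snx7 (0.846), Plxna2 (0.841) and Ccdc80 (0.818), for Dkk3 Fbn2 (0.878), Ednra (0.843), Adamts2 (0.835) and Adcy1 (0.825), and for Sfrp4 they included C1qtnf3 (0.827), Klhl30 (0.817) and Tnni1 (0.810). On that scale Sfrp1 and Dkk2 ran opposite (−0.680), as did Wif1 and Dkk2 (−0.710), while Sfrp1 and Wif1 (0.670) and Sfrp2 and Dkk3 (0.707) ran together.

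Other genes of the pathway. With trametinib 14.1% of all genes were called higher and 14.1% lower, and the counts here stand beside those shares. Of 19 Wnt ligands tested, 4 were called higher and 2 lower, with a median log2 difference of 0.10; Wnt5b, a ligand of the β-catenin-independent branch, was at 0.91 ± 0.116 and Wnt9a at 0.66 ± 0.110. Of 18 frizzled and other Wnt receptors 3 were higher and 2 lower (median 0.03), with Fzd8 at 0.43 ± 0.0879 and Fzd10 at −0.86 ± 0.220. Of 9 genes of the R-spondins, which amplify Wnt signals, and their receptors, 5 were higher and 2 lower (median 0.30). Rspo2 was at 1.89 ± 0.276 and the receptor Lgr5 at 1.07 ± 0.195. The median untreated level of Rspo2 was 0.0364 CPM, and 131 tumours were at 0. Other secreted inhibitors and modulators outside the 9 members were higher in 3 of 10 and lower in 0 (median 0.31), Draxin at 0.82 ± 0.235 and Igfbp4 at 0.42 ± 0.143 among them.

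The β-catenin target genes did not move one way with trametinib. Of 9 tested 1 was higher and 2 lower, with a median of −0.18: Axin2, the feedback inhibitor most used as a readout of the pathway, was at 0.78 ± 0.161, the cyclin gene Ccnd1 at −0.67 ± 0.104 and Myc, named after its value was seen, at −0.42 ± 0.0885. The last pair are also widely known as targets of other pathways.

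Under the other treatments the pathway genes called by edgeR's quasi-likelihood test were the following. Over all genes 1.62% were called higher and 2.62% lower with erlotinib, 11.6% and 5.89% with chemotherapy, and 4.98% and 3.14% with the antibodies. No gene was called under any of these treatments with 1 difference per model. With erlotinib Wnt11 (−0.83 ± 0.197, adjusted p 0.00732) and Wnt2b (−0.59 ± 0.180, 0.0433) fell among 19 ligands. Kremen1, a receptor for Dickkopf proteins, fell (−0.24, 0.0350), Rspo2 rose (1.08, 0.0199), and the Dickkopf gene Dkk4 fell (−2.33, 0.0121). Dkk4 was close to silent, with a median untreated level of 0 CPM and 253 tumours at 0, so nothing is read from its fall. Rspo2 was also low, with a median untreated level of 0.0364 CPM and 131 tumours at 0. With chemotherapy Fzd9 fell (−0.57, 0.0210), Lgr6, an R-spondin receptor, rose (0.60, 0.00594), Igfbp4 rose (0.31, 0.0292), and the targets Tnfrsf19 (−0.52, 0.00973) and Myc (−0.33, 0.0134) fell. With the checkpoint antibodies Rspo1 fell (−0.71, 0.0442) and Dkkl1 rose (0.60, 0.0276).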

How the data were processed

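Poly(A) RNA libraries from 309 mouse mammary tumours were analysed from 2 deposited tables of 55291 genes. The first holds estimated counts, made by the authors with STAR, SAMtools, Picard and Salmon on mm10, per the submitters' processing notes; for versions and strandedness, the value is not given in the sources used here. Of its values 8.35% were not whole, and they were rounded. The second holds the authors' upper-quartile normalized signal, which equals each deposited count divided by its library's 75th percentile and multiplied by 1000 (tested on the values). It was used for an alternative only. Groups came from the titles, and the labels give no cultures or animals beyond 1 tumour a library, so p-values measure the spread between these tumours.

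Genes were kept by filterByExpr over groups of model and treatment and scaled by TMM. Each treatment was tested against untreated tumours with model as a term by edgeR 4.0.16 (quasi-likelihood F-test, with Benjamini-Hochberg adjustment over all genes tested and a threshold of 0.05), and differences between models by the interaction. Levels are CPM on TMM-scaled totals, and log2 CPM has a prior count of 2, which understates changes of low genes. Per-model differences are of mean log2 CPM; the E0771 error is left out, since that model has 1 untreated tumour. Alternatives were limma 3.58.1 with 1 difference per model, DESeq2 1.42.0, RLE scaling, no filter, the authors' table, untreated tumours within 100 library numbers (near), the others (far), or those with the labels' set flag, a prior count of 0.5 for log2 CPM, and fits without each replicate or model. Fits without a model or without a replicate reused the genes and dispersions of the full fit. Without replicate 1, E0771 dropped out of the comparisons with untreated tumours, since its 1 untreated tumour is replicate 1. Replicate numbers were given in accession order and pair no samples.

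Counts were simulated for trametinib against untreated tumours (25685 genes), with a single dispersion for all genes and the same change in every model. The test recovered 74% of genes changed by 1 on the log2 scale and 99% of those changed by 2, with 1.70% false calls. In the tumours, responses to the other treatments differed between models for many genes, so these rates need not hold for them. Named genes are the 9 members, the 4 genes most like each by Pearson's r (genes of mean log2 CPM of at least 0, without predicted genes and pseudogenes), and at most 2 genes of the smallest p per list and comparison. One gene that this rule names is not reported here. The members and lists were chosen with earlier results of these data known. The ± values, SD or SE, rest on the spread between tumours, and the floors cover counting error only. R 4.3.3 and Python 3.11.15 were used.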

Additional observations from a re-analysis of the deposited data

Results flagged for a closer look

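Among 43 pairs of a gene and an untreated group of 4 or more tumours, 1 tumour stood apart from its group in 6. Chance gives about 1 in 20, but 5 of the 6 rest on 1 to 7 counts among tumours at or near 0, where that rate is no guide. In untreated KPB1-B the lowest Dkk3 value was 8.27 CPM, against 22.1 to 30.8 in the other tumours. In untreated p53RB-626 the highest Sfrp5 value was 0.0619 CPM, with 7 counts and none in the others, and the highest Wif1 value was 0.0798 CPM, with 2 counts. Dkk1 stood apart through 1 or 2 counts, at 0.0105 CPM in a C3-TAG, 0.0248 CPM in a KPB1-B and 0.0322 CPM in a T11 tumour.

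The effect of a treatment differed between models past the threshold in 17 cases (edgeR's interaction test, adjusted p). Over all genes tested, the same test called 52.6% with erlotinib, 46.3% with chemotherapy and 33.9% with the checkpoint antibodies. With erlotinib these were Dkk3 (1.04e-06), Sfrp2 (1.77e-05), Frzb (0.000653), Dkk2 (0.00167), Wif1 (0.0130), Sfrp4 (0.0176) and Sfrp1 (0.0253). With chemotherapy they were Sfrp5 (0.00308), Frzb (0.0119), Sfrp1 (0.0153) and Dkk3 (0.0252). With the checkpoint antibodies they were Dkk3 (0.00209), Sfrp4 (0.00331), Sfrp2 (0.0104), Sfrp5 (0.0209), Dkk2 (0.0222) and Sfrp1 (0.0365). Without 1 of the replicates the number of members past the threshold was 3 to 5, 0 to 1 and 0 to 3 in that order.

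With trametinib, models separated in opposite directions for 7 members, and these differences were not tested. The share of all genes that separate in this way was not counted, so nothing is read from these numbers. The numbers of models with all trametinib tumours above and all below the untreated ones were 11 and 1 for Dkk3, 5 and 1 for Sfrp4, 4 and 1 for Sfrp1, 4 and 1 for Sfrp5, 3 and 3 for Dkk2, 2 and 2 for Wif1, and 1 and 3 for Frzb. E0771, with its 1 untreated tumour, is among the models below for each of them, and the only one for Dkk3, Sfrp1, Sfrp4 and Sfrp5.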

How the results depend on the processing

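No paired analysis was possible because the labels give no replicate numbers that link tumours of different groups. The interaction tests without each model were not run. The number of members called, 5 with trametinib, 1 with erlotinib, 2 with chemotherapy, 2 with the antibodies, and 1 and 3 for trametinib against erlotinib in 6 and in 16 models, became 3, 0, 0, 0, 0 and 0 with 1 difference per model. It became 0 for erlotinib with far untreated tumours, 1 for chemotherapy with near ones, 2 for the 6 models with DESeq2, and, for the antibodies, 1 with the authors' table, without a filter or with the flagged untreated tumours and 0 with near ones. With trametinib Sfrp5 was no longer called with far untreated tumours. Dkk2 was also called for chemotherapy with the authors' table and for the antibodies with far untreated tumours. Sfrp4 was also called for trametinib against erlotinib in the 16 models with the authors' table. Without 1 replicate the number of members called ran from 3 to 5, 0 to 1, 0 to 2, 0 to 0, 0 to 0 and 1 to 4 in the order given first, and the interaction calls (7, 4 and 6) from 3 to 5, 0 to 1 and 0 to 3. Without 1 model it ran from 5 to 5, 1 to 1, 2 to 3, 1 to 2, 0 to 2 and 3 to 3. Sfrp4 with the antibodies reversed to 0.51 (adjusted p 0.814) with near untreated tumours. Fits with near or far untreated tumours keep only the models that have them, here 3 of 12. The causes were not tested, although dropping a replicate or pooling to models leaves fewer values.

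Over all genes the calls with trametinib, 7228, were 1134 with 1 difference per model, 4589 with far untreated tumours and 4415 without replicate 2. With erlotinib 1095 became 0 with 1 difference per model in limma (1354 at an unadjusted p under 0.05), 2663 with the authors' table and 71 to 265 without a replicate. With chemotherapy 3104 higher and 1572 lower became 0 in all (3756 unadjusted), 1672 with flagged, 1413 with near untreated tumours and 1637 to 2648 without a replicate. With the antibodies 2075 became 0 (2267 unadjusted), 4466 with far, 1023 with flagged and 3 with near untreated tumours, 154 to 603 without a replicate and 801 to 3243 without a model. For trametinib against erlotinib, 174 in the 6 models became 0 (661 unadjusted), 522 with DESeq2, 0 to 29 without a replicate and 30 to 976 without a model, and 4308 in the 16 models became 6 and 1441 to 3163. The interaction calls, 13607, 12359 and 8671, were 5383 to 11132, 5830 to 7031 and 2088 to 2998 without a replicate. Depth limits Dkk1, Sfrp5 and, outside a few models, Wif1 and Frzb, whose values lie near the level of 3 counts in the shallowest libraries.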

Other observations

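The labels give a median survival in days for each group of model and treatment, set here beside the Sfrp2 difference with trametinib with no test. In 2153 survival was 10 days untreated and 43 with trametinib, beside a Sfrp2 difference of 4.37 on the log2 scale. In T11-APOBEC it was 15 and 42 days (3.86), in T11 14 and 35 (2.65), in MMTV-Neu 29 and 63 (2.28), in C3-TAG 28 and 56 (1.95) and in 2208 21 and 58 (1.50). In KPB25L-UV it was 35 and 45 days (2.78), in p53RB-626 12 and 17 (2.37), in KPB25L 21 and 36 (1.61), in MMTV-PyMT 28 and 43.5 (1.52), in KPB1-A 16 and 21 (2.29), in p53RB-624 14 and 16 (1.82), in p53RB-426 9 and 12 (1.68), in KPB1-B 14 and 17 (1.32) and in T12 24 and 31 (1.07). E0771 had 25 days in both groups and the smallest Sfrp2 difference, 0.82. No relation across models is drawn from these values.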
